A study of Mus musculus with 8 samples.

Results

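The expression of protein-coding genes was compared between macrophages given any of 7 stimuli and the same cells left without one. A gene was taken as a member when its level in the untreated library lay outside the range spanned by all 7 stimulated libraries. Of 10003 protein-coding genes measured at a mean of at least 1 FPKM, 4906 were members. The 7 stimulated libraries all lay above the untreated one for 1962 genes, 19.6% of those measured, and all lay below it for 2944 genes, 29.4%. A narrower set of 450 genes, described in most detail here, was at least 2-fold from the nearest stimulated library. It held 158 genes higher in all 7 stimulated libraries, 1.58% of those measured, and 292 genes lower in all 7, 2.92%. FPKM is fragments per kilobase of transcript and per mapped fragments of the library, a level that takes transcript length and sequencing depth into account. A change is log2 of stimulated FPKM + 1 over untreated FPKM + 1. Fold sizes, the 2-fold limit and the spread among stimulated libraries are also on this FPKM + 1 scale. The change of the stimulated library closest to the untreated level is called the step, so every other stimulated library lay further away.

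Poly(A) RNA was sequenced from bone marrow-derived macrophages of C57BL/6 mice, grown for 7 days in medium conditioned by L929 fibroblasts, a source of the macrophage growth factor CSF1. The 7 stimulated cultures each received 1 agent for 4 h. IFNg (interferon gamma) was given at 100 ng/ml. IL4 (interleukin 4), TNFa (tumour necrosis factor) and IL1b (interleukin 1 beta) were each at 10 ng/ml. TGFb1 (transforming growth factor beta) and the lipopeptide MALP2 were each at 1 ng/ml, and CpG DNA was at 100 nM. The last culture had no treatment. No genotype other than the strain is given for any culture. Each culture gave 1 library, so there is no replicate error, no test was made, and all 7 comparisons share the 1 untreated library. The FPKM values themselves chose the members, so their values are a description and support nothing further. Whatever is particular to that culture or library cannot be told apart from the lack of a stimulus. The labels do not say whether the 8 cultures came from separate mice. In bulk RNA, fewer cells of a type and less RNA per cell cannot be told apart either.

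The median gene was slightly lower in every stimulated library, by -0.13 (IFNg) to -0.076 (TGFb1) on the log2 scale. With each stimulated library centred on that median gene, 2460 genes lay above (24.6%) and 2463 below (24.6%), with 193 (1.93%) and 229 (2.29%) at least 2-fold away. The share of higher genes was 49.97% of members after centring and 39.99% before it, and for the 2-fold sets 45.7% after and 35.1% before. The authors' deposited tables call a difference significant in the same direction in all 7 comparisons for 165 of the higher genes and 303 of the lower ones. These are 1.65% and 3.03% of all measured genes. Such a call compares a pair of libraries, not conditions. Absolute depth is unknown. The spacing of low FPKM values gives relative depth: a single read counted for 2.03 times more FPKM after IFNg than untreated, and for 1.04 to 1.41 times more after the other 6 agents. The macrophage label held in the data: 10 of 11 macrophage marker genes were found, all at 1 FPKM or more, and their summed level was 5072 to 9005 FPKM after stimulation and 6457 FPKM untreated.

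Macrophages at rest in CSF1 keep a programme of lysosomal, lipid-handling and iron-exporting genes. An incoming signal reaches the nucleus through kinase cascades and latent factors such as NF-kB, STAT and SMAD proteins. Each signal induces genes of its own. A response of growth-related genes, among them immediate early factors and MYC with its targets in ribosome assembly, is common to many stimuli in many cell types. Genes of starvation and quiescence, driven by FOXO factors and by TFEB, the regulator of lysosomal genes, are typically held down when growth signalling is active. Id1 encodes an inhibitor of basic helix-loop-helix factors and is a direct target of BMP and SMAD signalling. Gpr84 encodes a receptor for medium-chain fatty acids that is known as an inflammation-induced gene in macrophages. Arhgap19 encodes a GTPase-activating protein for the small GTPase RhoA, with a known role in cell division.

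Among these 3 genes Id1 (ENSMUSG00000042745, mm9 chromosome 2, 152561987 to 152563146) had the largest step, the change of the stimulated library nearest to untreated. Id1 had 49.99 FPKM after IFNg, 77.9 after IL4, 47.5 after TNFa, 70.2 after TGFb1, 69.7 after IL1b, 61.4 after MALP2 and 64.5 after CpG, against 1.08 FPKM untreated. The untreated value had authors' confidence bounds of 0.384 to 1.78 FPKM, and the lowest stimulated value, after TNFa, had bounds of 22.1 to 73.0 FPKM. The 7 stimulated libraries were within 2-fold of each other (spread 0.70, the log2 ratio of the highest to the lowest FPKM + 1). The step was 4.54, or 23.3-fold on the same FPKM + 1 scale. It was the gene with the largest upward step.

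Gpr84 had 222 FPKM after IFNg, 32.6 after IL4, 725 after TNFa, 111 after TGFb1, 439 after IL1b, 938 after MALP2 and 740.3 after CpG, against 3.94 FPKM untreated, at mm9 chromosome 15, 103138667 to 103140869 (ENSMUSG00000063234). The step was 2.77, set by IL4, and the spread among stimulated libraries was 4.81, larger than the step. IL4 and TGFb1 gave the lowest levels and MALP2 the highest. The untreated bounds of 1.40 to 6.47 FPKM lay below those of every stimulated library.

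For Arhgap19 (ENSMUSG00000025154, mm9 chromosome 19, 41841081 to 41876574) the order was reversed. Arhgap19 had 1.85 FPKM after IFNg, 4.46 after IL4, 2.07 after TNFa, 10.5 after TGFb1, 5.25 after IL1b, 2.14 after MALP2 and 2.0003 after CpG, against 69.6 FPKM untreated. All 7 lay under the untreated level by at least 6.13-fold (step -2.62), TGFb1 being the closest and IFNg the furthest. The untreated bounds were 27.9 to 111 FPKM and those after TGFb1 5.12 to 15.9 FPKM, so the intervals did not meet.

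**Figure D1:**
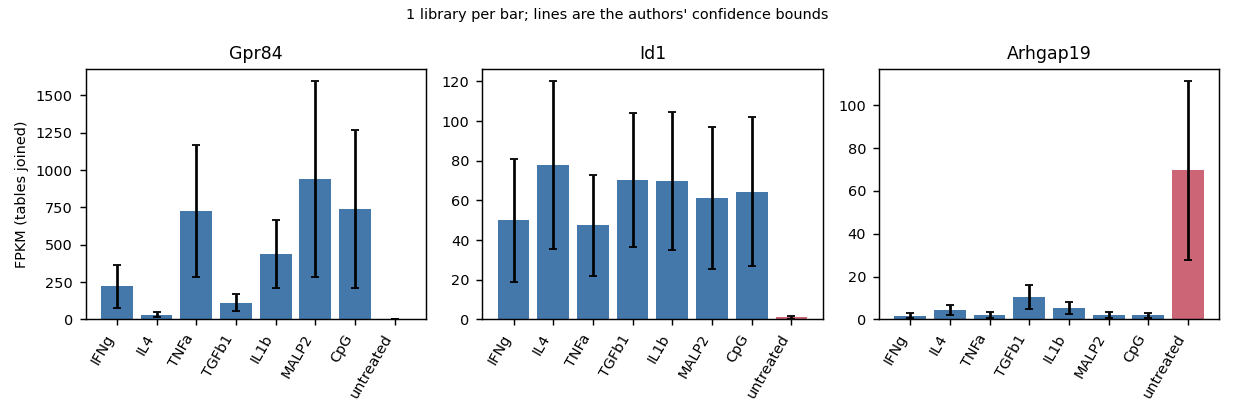
FPKM of Gpr84, Id1 and Arhgap19 in the 7 stimulated libraries (blue) and the untreated library (red), 1 library per bar, with the authors' confidence bounds as lines. Gpr84 and Id1 stood at 3.94 and 1.08 FPKM untreated, below every stimulated bar, and Arhgap19 at 69.6 FPKM untreated, above every stimulated bar.

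The promoters of the given genes that the sequence table holds are shown because each gene lay on 1 side of untreated in all 7 libraries, Gpr84 above and Arhgap19 below. They come from RefSeq on GRCm38.p6, a different build from the mm9 loci above, and run from 250 bases before to 50 bases after the start site, read 5′ to 3′ on the gene's strand. Capitals mark matches to any of 12 motifs searched on both strands. The Gpr84 window (chr15:103310389-103310688, minus strand) held none of the 12, which says no more than that these letters are not in this window. The Arhgap19 window (chr19:41802035-41802334, minus strand) held CCAAT 4 times, at -112, -85, -36 and -4 from the start site.
Gpr84: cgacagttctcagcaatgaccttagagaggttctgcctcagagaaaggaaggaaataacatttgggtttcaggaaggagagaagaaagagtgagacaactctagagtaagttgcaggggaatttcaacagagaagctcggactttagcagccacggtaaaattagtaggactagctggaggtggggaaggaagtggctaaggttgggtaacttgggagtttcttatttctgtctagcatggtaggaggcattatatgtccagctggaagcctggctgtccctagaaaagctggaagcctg
Arhgap19: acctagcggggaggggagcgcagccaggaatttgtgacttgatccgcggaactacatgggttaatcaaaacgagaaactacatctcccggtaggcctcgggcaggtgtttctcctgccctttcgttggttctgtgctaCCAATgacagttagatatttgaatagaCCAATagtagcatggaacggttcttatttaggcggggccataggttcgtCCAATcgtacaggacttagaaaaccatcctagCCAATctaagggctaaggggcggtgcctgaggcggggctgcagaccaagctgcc
CCAAT is the box bound by the factor NF-Y. It was found in 45.5% of 292 promoter windows of genes at least 2-fold lower and 34.5% of 142 windows of genes at least 2-fold higher, beside 37.2% of 10235 windows of all measured genes.

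On the FPKM + 1 scale the higher and the lower genes differed in how alike the 7 stimuli were. Among the 292 lower genes, the spread among stimulated libraries was smaller than the step for 234 (80.1%), and 188 (64.4%) had all 7 stimulated libraries within 2-fold of each other. Among the 158 higher genes these counts were 88 (55.7%) and 59 (37.3%). For all measured genes the 7 libraries were within 2-fold of each other in 61.5%. The median spread was 1.36 for the higher genes, 0.80 for the lower genes and 0.82 for all measured genes, while the median steps were alike in size, 1.33 and -1.27. The lower genes had medians of 6.08 FPKM after stimulation and 29.8 FPKM untreated. For the higher genes the medians were 46.9 FPKM after stimulation and 7.36 FPKM untreated. The median untreated level of all measured genes was 14.5 FPKM. Which of the 2 levels is higher in each set follows from the rule that chose the genes, so these medians are a description only. Adding 1 to FPKM narrows the spread more at low levels, and stimulated levels were lower in the lower genes. How much of the difference in spread comes from this was not tested. At least 4-fold steps were found for 26 higher and 34 lower genes. The authors' confidence bounds of the untreated library were apart from those of all 7 stimulated libraries for 94 of the 158 and 179 of the 292. Their deposited tables called 115 of the 158 and 207 of the 292 in all 7 comparisons, and 1 and 8 in none. The loci of 56 of the 158 and 100 of the 292 overlap another listed gene, beside those of 3969 of all 10003 measured genes. Since strandedness is not given in the sources used here, reads of overlapping genes cannot be told apart. Among the genes named below this holds for Tgm2, Ch25h, AA467197, Ell2, Fmnl2, Slc7a2, Odc1, Ccnd1, Ccnd2, Slc2a1, Hk2, Tsr1, Lrrc14b, Dbp, Tef, Rell1, Tmem154, Aph1c, Fbxw4 and Fnip2, among others.

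**Figure D2:**
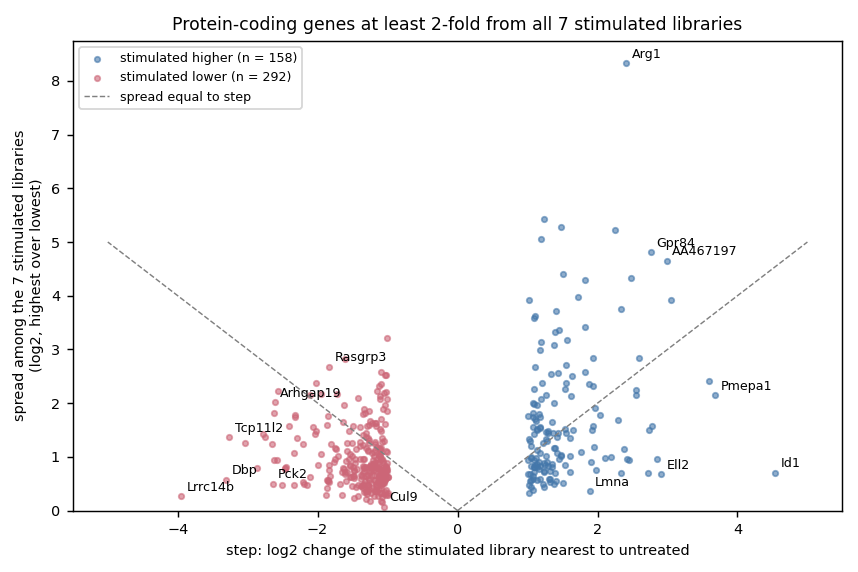
Each point is 1 of the 450 genes at least 2-fold from all 7 stimulated libraries (158 higher in blue, 292 lower in red). The x axis is the log2 change of the stimulated library nearest to the untreated one and the y axis the log2 spread among the 7 stimulated libraries, both of FPKM + 1. Points under the dashed lines, 234 of the lower and 88 of the higher genes, had a spread smaller than the step, and Arg1 had the largest spread, 8.33.

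No single stimulus set the edge of the range. Among the higher genes the library nearest to untreated was TGFb1 for 39, IL4 for 38, IFNg for 35, MALP2 for 19, CpG for 11, TNFa for 9 and IL1b for 7. The furthest was IL4 for 57, IFNg for 26, CpG for 23, TGFb1 for 19, MALP2 for 18, TNFa for 13 and IL1b for 2. Among the lower genes TGFb1 was nearest for 100, IL4 for 60, IL1b for 38, IFNg for 37, MALP2 for 34, TNFa for 14 and CpG for 9. IFNg was furthest for 106 of them, MALP2 for 69, CpG for 41, IL4 for 30, TNFa for 24, TGFb1 for 19 and IL1b for 3. The libraries also differed over all 10003 measured genes. There the genes at least 2-fold lower than untreated numbered 1350 after IFNg, 1238 after MALP2, 1176 after IL4, 1171 after CpG, 1055 after TNFa, 901 after TGFb1 and 876 after IL1b. Those at least 2-fold higher numbered 1098, 961, 966, 959, 883, 696 and 716 in the same order. These counts are therefore not particular to the members. The median change of the lower genes ran from -1.94 (IFNg) to -1.48 (TGFb1) over the 7 libraries, and that of the higher genes from 1.86 (TGFb1) to 2.11 (TNFa).

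The 15 genes with the largest upward steps among those called in all 7 of the authors' deposited tables began with Id1 and had steps from 4.54 to 2.47. After Id1 came Pmepa1, an inhibitor of SMAD signalling induced by TGFb. Pmepa1 had 75.6 FPKM after IFNg, 55.4 after IL4, 43.2 after TNFa, 139 after TGFb1, 46.0 after IL1b, 30.7 after MALP2 and 36.5 after CpG, against 1.47 FPKM untreated. TGFb1 gave the highest level, and the other 6 still lay at least 12.8-fold above untreated on the FPKM + 1 scale. Tgm2 had 3491 FPKM after IFNg, 1531 after IL4, 1030.2 after TNFa, 1338 after TGFb1, 1074 after IL1b, 744 after MALP2 and 654 after CpG, against 53.1 FPKM untreated. This gene encodes tissue transglutaminase, a protein cross-linking enzyme. All 7 levels exceeded untreated by at least 12.1-fold, although the authors' bounds were not apart in every library. Ch25h had 532 FPKM after IFNg, 85.0 after IL4, 134 after TNFa, 34.1 after TGFb1, 78.7 after IL1b, 222 after MALP2 and 256 after CpG, against 3.24 FPKM untreated. Ch25h makes the oxysterol 25-hydroxycholesterol, and it was highest after IFNg and lowest after TGFb1.

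Several of the genes that follow were close to level across the stimuli. Ell2, a transcription elongation factor, had 65.0 to 104 FPKM after stimulation (median 83.1) and 7.79 FPKM untreated, a spread of 0.67 beside a step of 2.91. Fmnl2, a formin that elongates actin filaments, had 20.9 to 41.4 FPKM after stimulation (median 32.6) and 2.03 FPKM untreated, and Tubb6, a beta-tubulin, had 152 to 248 FPKM after stimulation (median 179) and 22.2 FPKM untreated. Their spreads were 0.95 and 0.70. The stimulated values of each of these genes stayed within 2-fold of one another. Glrx, the redox enzyme glutaredoxin, had 334 to 997 FPKM after stimulation (median 687) and 47.6 FPKM untreated. Id3, a relative of Id1, had 32.3 to 93.5 FPKM after stimulation (median 50.6) and 4.02 FPKM untreated. Etv5, an ETS transcription factor, had 28.8 to 131 FPKM after stimulation (median 40.6) and 4.09 FPKM untreated, with IL4 far above the other 6. Myc, the growth-promoting transcription factor, had 24.9 FPKM after IFNg, 122 after IL4, 82.6 after TNFa, 39.8 after TGFb1, 66.0 after IL1b, 49.1 after MALP2 and 40.0 after CpG, against 3.41 FPKM untreated. IL4 and TNFa gave its highest levels and IFNg its lowest, and no stimulated value came near the untreated one.

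The remaining 3 of the 15 differed widely between stimuli. AA467197 had 831 FPKM after IFNg, 61.1 after IL4, 101 after TNFa, 79.5 after TGFb1, 32.1 after IL1b, 79.0 after MALP2 and 86.7 after CpG, against 3.17 FPKM untreated. IFNg stood far above the other 6. Cxcl14, a chemokine, had 48.4 FPKM after IFNg, 24.8 after IL4, 73.6 after TNFa, 183 after TGFb1, 118 after IL1b, 47.5 after MALP2 and 25.1 after CpG, against 3.28 FPKM untreated, with TGFb1 and IL1b highest. Slc7a2, a transporter of arginine and other cationic amino acids, had 31.0 FPKM after IFNg, 197 after IL4, 68.1 after TNFa, 8.81 after TGFb1, 15.9 after IL1b, 51.5 after MALP2 and 89.9 after CpG, against 0.768 FPKM untreated. IL4 was the highest and TGFb1 the lowest. Arg1, arginase, was named after its values were seen because its spread was the largest of the 450. Arg1 had 4.49 FPKM after IFNg, 1766 after IL4, 4.53 after TNFa, 8.72 after TGFb1, 4.79 after IL1b, 18.6 after MALP2 and 8.21 after CpG, against 0.0343 FPKM untreated. Its untreated level had bounds of 0 to 0.0739 FPKM, so that a low level after 6 of the agents still met the 2-fold limit on the FPKM + 1 scale.

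**Figure D3:**
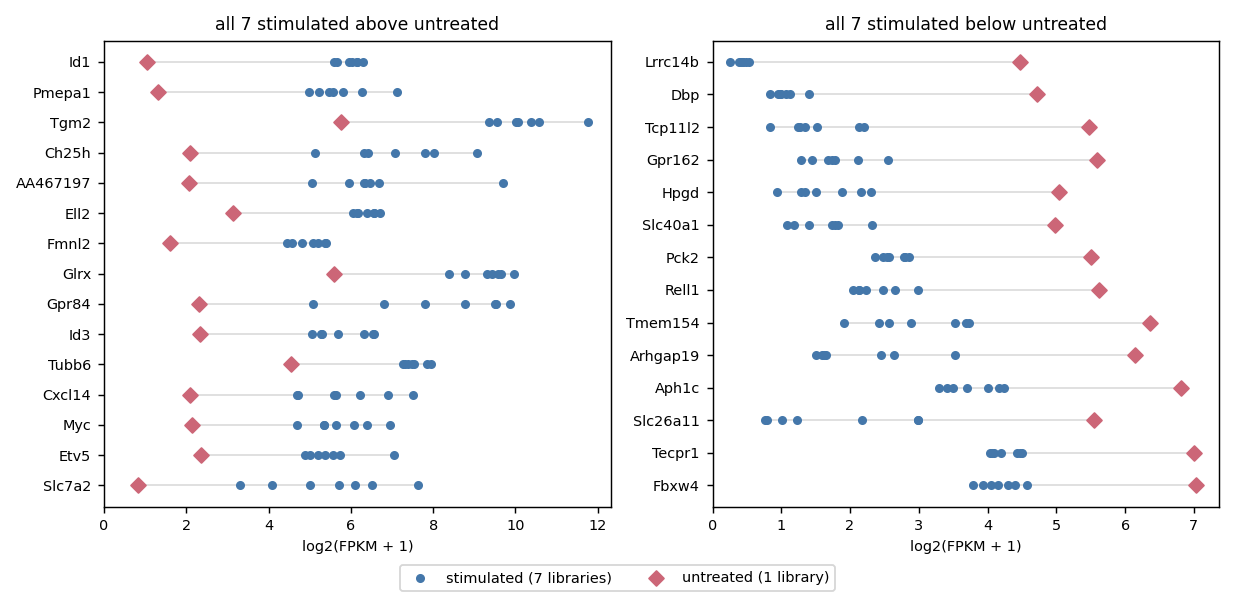
log2(FPKM + 1) of the 15 genes with the largest upward steps (left) and 14 of the 15 with the largest downward steps (right) among genes called in all 7 of the authors' deposited tables. Blue dots are the 7 stimulated libraries and the red diamond the untreated library. By the rule that chose these genes, the diamond lies outside the range of the dots in each. The steps run from 4.54 to 2.47 on the left and from -3.95 to -2.46 on the right.

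The 15 genes with the largest downward steps were led by Lrrc14b, which encodes a leucine-rich repeat protein. Lrrc14b had 0.301 FPKM after IFNg, 0.359 after IL4, 0.345 after TNFa, 0.404 after TGFb1, 0.440 after IL1b, 0.192 after MALP2 and 0.336 after CpG, against 21.2 FPKM untreated. The spread among the stimulated libraries was 0.27, which the added 1 FPKM keeps small at levels of 0.192 to 0.440 FPKM. The lower of the authors' untreated bounds was 8.94 FPKM. Dbp, a transcription factor that carries circadian output, came next with 0.780 FPKM after IFNg, 1.65 after IL4, 0.979 after TNFa, 1.10 after TGFb1, 1.19 after IL1b, 0.998 after MALP2 and 0.943 after CpG, against 25.3 FPKM untreated. All 7 stimulated levels were at or under 1.65 FPKM and the step was -3.31. Tcp11l2 had 0.793 FPKM after IFNg, 3.61 after IL4, 1.53 after TNFa, 3.36 after TGFb1, 1.87 after IL1b, 1.41 after MALP2 and 1.36 after CpG, against 43.3 FPKM untreated. IL4 and TGFb1 gave the highest of the stimulated levels of Tcp11l2, and IFNg the lowest.

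Among the other genes of this group were enzymes and transporters. Hpgd, the dehydrogenase that inactivates prostaglandins, had 0.908 to 3.92 FPKM after stimulation (median 1.83) and 32.0 FPKM untreated. Slc40a1, ferroportin, the cell's iron exporter, had 4.00 FPKM after IFNg, 1.64 after IL4, 2.34 after TNFa, 1.11 after TGFb1, 2.43 after IL1b, 1.26 after MALP2 and 2.52 after CpG, against 30.6 FPKM untreated. IFNg left the most and TGFb1 the least. Pck2, the mitochondrial enzyme that makes phosphoenolpyruvate, had 4.12 to 6.24 FPKM after stimulation (median 4.91) and 44.2 FPKM untreated, with a spread of 0.50. Slc26a11, an anion transporter, had 0.731 FPKM after IFNg, 6.93 after IL4, 1.34 after TNFa, 6.95 after TGFb1, 3.52 after IL1b, 0.699 after MALP2 and 1.02 after CpG, against 45.9 FPKM untreated. IL4 and TGFb1 stood above the other 5, at 6.93 and 6.95 FPKM, all far under untreated.

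The rest of this group had various roles or none given here. Gpr162, an orphan receptor, had 1.45 to 4.86 FPKM after stimulation (median 2.32) and 47.3 FPKM untreated. Aph1c, a subunit of the gamma-secretase protease, had 8.85 to 17.9 FPKM after stimulation (median 12.04) and 112 FPKM untreated, and its relative Aph1b, at the neighbouring locus, was also among the 292. Reads can be shared between such near copies. Tecpr1, which tethers autophagosomes to lysosomes, had 15.3 to 21.6 FPKM after stimulation (median 17.2) and 128 FPKM untreated. Fbxw4, an F-box protein, had 12.8 to 22.7 FPKM after stimulation (median 16.7) and 129.8 FPKM untreated. Rell1 had 3.13 to 6.91 FPKM after stimulation (median 3.71) and 47.9 FPKM untreated and Tmem154 2.77 to 12.3 FPKM after stimulation (median 6.39) and 81.2 FPKM untreated. Cryab, a small heat shock protein, had a larger step than most of these, -2.87, with 1.25 to 2.92 FPKM after stimulation (median 1.52) and 27.7 FPKM untreated, but none of the authors' deposited tables called it.

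Genes of other cell types were looked up because a few of the lower genes are known from lymphocytes. Of 12 B and plasma cell markers found, 4 reached 1 FPKM in any library, and their summed level over the list was 40.6 to 74.5 FPKM after stimulation and 241 FPKM untreated. Of the 12, 6 were below untreated in all 7 libraries, beside 29.4% of all measured genes, and 3 by at least 2-fold, beside 2.92%. The 4 that reached 1 FPKM, Ighm, Blnk, Cd79b and Cd22, were all among the 6. The other 2 of the 6, Jchain and Vpreb1, were under 1 FPKM in every library, at 0.170 and 0.328 FPKM untreated. Both shares of all measured genes are for a mean of at least 1 FPKM, which the other markers of this list did not reach. Of the 3, Blnk and Cd79b are annotated as protein-coding genes. Ighm, the immunoglobulin mu chain, had 15.1 to 29.7 FPKM after stimulation and 124 FPKM untreated. Blnk, an adaptor of the B cell receptor, had 13.9 to 45.3 FPKM after stimulation (median 41.3) and 104 FPKM untreated. Cd79b, a chain of that receptor, had 1.58 to 2.85 FPKM after stimulation (median 2.10) and 7.82 FPKM untreated. Cd79a and Ms4a1, other B cell genes of the list, stood at 0.0348 and 0.0156 FPKM in the untreated library. The part of such cells in the lower genes was not tested. Neutrophil markers summed to 192 to 454 FPKM after stimulation and 307 FPKM untreated, and T and NK cell markers to 6.12 to 22.3 FPKM after stimulation and 9.71 FPKM untreated. Stromal markers summed to 73.0 to 150.1 FPKM after stimulation, highest after IFNg, and 70.4 FPKM untreated. Of these 11 markers 2 lay above in all 7, beside 19.6% of all measured genes. No dendritic or erythroid marker reached 1 FPKM in any library, and 1 of 5 mast cell markers did.

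The measured genes were then read through 39 lists of pathways and families. A list is given by how many of its measured genes lay above or below in all 7, beside 19.6% and 29.4% of all measured genes, and by the median over its genes of the median change over the 7 libraries, which was -0.09 for all measured genes. By share of measured genes, ribosome biogenesis, heat shock proteins and the MYC network led the lists above, and lysosome and autophagy, FOXO targets and quiescence, and S and M phase genes led those below.

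**Figure D4:**
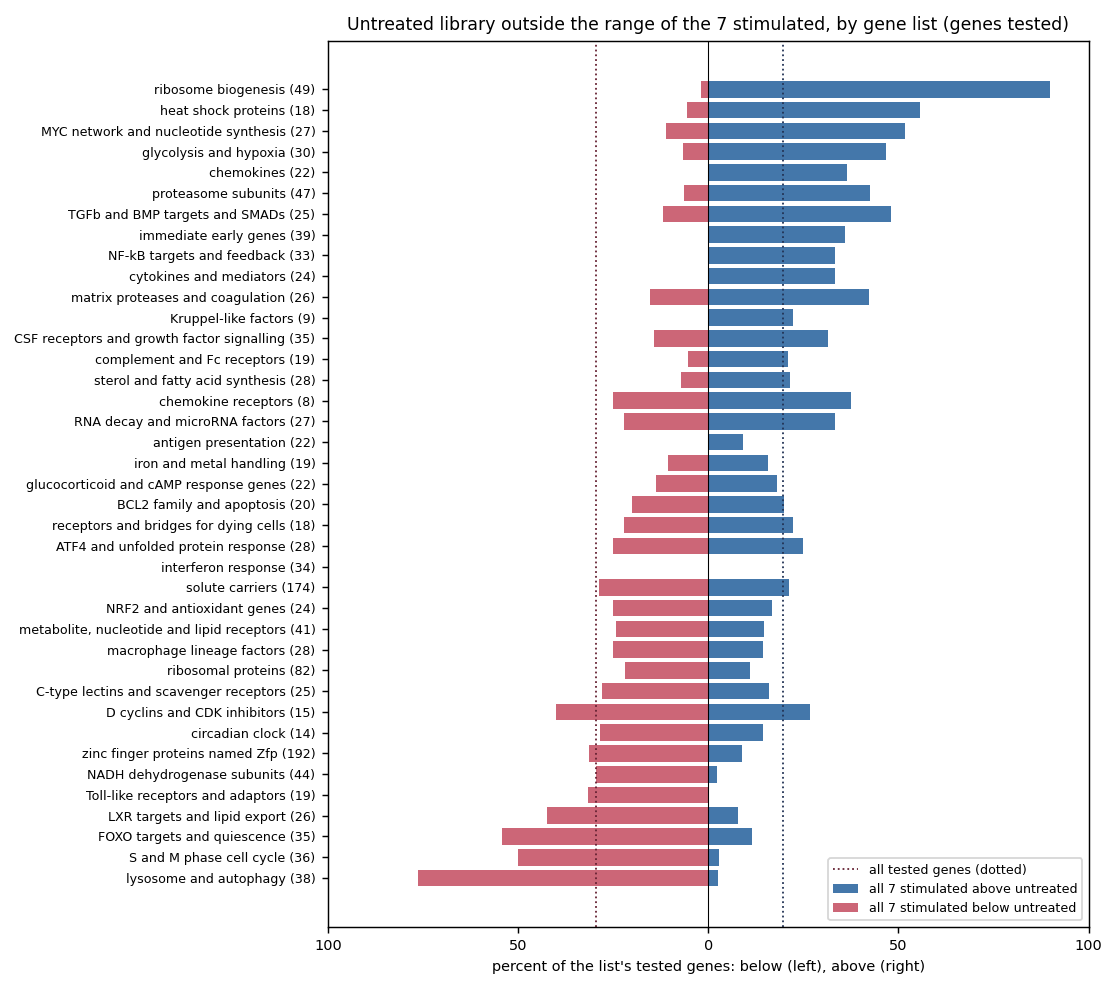
Percent of each list's measured genes (number in parentheses) for which all 7 stimulated libraries lay below the untreated one (red, left) or above it (blue, right). Dotted lines mark all measured genes, 29.4% below and 19.6% above. Ribosome biogenesis leads on the right with 44 of 49 genes, and lysosome and autophagy on the left with 29 of 38.

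Ribosome biogenesis had the largest share above untreated of the 39 lists. Of 49 measured factors 44 lay above untreated in all 7 libraries and 1 below, 14 of them by at least 2-fold, with a median change of 1.42. Tsr1, which assembles the small ribosomal subunit, had 45.7 FPKM after IFNg, 87.6 after IL4, 59.9 after TNFa, 49.0 after TGFb1, 51.5 after IL1b, 43.7 after MALP2 and 45.8 after CpG, against 9.39 FPKM untreated. Grwd1, a nucleolar WD-repeat protein, had 21.8 FPKM after IFNg, 43.8 after IL4, 31.0 after TNFa, 21.1 after TGFb1, 34.1 after IL1b, 38.9 after MALP2 and 32.8 after CpG, against 6.24 FPKM untreated. Rrp12, known from yeast to be needed for export of ribosomal subunits, had 22.6 FPKM after IFNg, 23.2 after IL4, 15.1 after TNFa, 13.6 after TGFb1, 15.9 after IL1b, 19.9 after MALP2 and 15.2 after CpG, against 3.81 FPKM untreated. IL4 gave the highest level of all 3, and the lowest stimulated value was at least 3.04-fold over untreated. The locus of Tsr1 spans several genes in the deposited tables, so its value is less sure. The median over the list was 1.83 after IL4 and 0.75 after IFNg, with the other 5 between. Polr1c, a subunit of RNA polymerases I and III, was the 1 gene below, with 30.2 to 40.1 FPKM after stimulation (median 36.3) and 51.6 FPKM untreated. None of the authors' deposited tables called Polr1c. The ribosomal proteins themselves did not follow: 9 of 82 lay above, 18 below and 0 at least 2-fold either way, and after centring 13 lay above and 8 below.

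The MYC network, which drives those genes in many cell types, held members on both sides. Of 27 measured genes of the network and of nucleotide and polyamine synthesis, 14 lay above and 3 below, 5 and 2 of them by at least 2-fold, and the median change was 0.70. Odc1, the first enzyme of polyamine synthesis, had 30.8 FPKM after IFNg, 25.5 after IL4, 28.9 after TNFa, 20.6 after TGFb1, 26.8 after IL1b, 29.9 after MALP2 and 41.0 after CpG, against 3.04 FPKM untreated. Eif4e, the cap-binding translation factor, had 25.7 to 48.8 FPKM after stimulation (median 38.9) and 10.9 FPKM untreated. The 2 at least 2-fold lower genes were antagonists of MYC. Mxd4, which competes with MYC for its partner MAX, had 4.43 FPKM after IFNg, 15.05 after IL4, 4.51 after TNFa, 8.37 after TGFb1, 6.15 after IL1b, 4.89 after MALP2 and 5.43 after CpG, against 66.5 FPKM untreated. Mnt, another such repressor, had 5.54 to 11.4 FPKM after stimulation (median 10.5) and 36.4 FPKM untreated. So Myc was higher, and Mxd4 and Mnt lower, in all 7 stimulated libraries, with IL4 highest for both Myc and Mxd4.

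The E-box CACGTG, the core site of MYC with MAX and also of TFEB, was among the motifs searched. It was in 17.6% of windows of genes at least 2-fold higher, 15.1% of windows of genes at least 2-fold lower and 10.3% of all windows. Promoters that hold it are shown for a pair of higher ribosome genes and a pair of lower genes, Mxd4 and Sgsh, the last of which was chosen after its values were seen. In Tsr1 (chr11:74897830-74898129, plus strand) the match lay at +24, and a match to the NF-kB consensus at -185 is also in capitals. Grwd1 (chr7:45830740-45831039, minus strand) had it at +34. In Mxd4 (chr5:34187661-34187960, minus strand) it lay at -219, with CCAAT on the other strand at -102 and -50. The Sgsh match (chr11:119355461-119355760, minus strand) was at -29.
Tsr1: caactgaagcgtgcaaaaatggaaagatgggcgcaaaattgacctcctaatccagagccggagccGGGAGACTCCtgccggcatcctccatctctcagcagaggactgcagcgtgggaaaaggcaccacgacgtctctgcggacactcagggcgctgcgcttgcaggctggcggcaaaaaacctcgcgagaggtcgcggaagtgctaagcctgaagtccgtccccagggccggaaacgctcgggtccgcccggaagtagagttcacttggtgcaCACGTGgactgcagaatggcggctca
Grwd1: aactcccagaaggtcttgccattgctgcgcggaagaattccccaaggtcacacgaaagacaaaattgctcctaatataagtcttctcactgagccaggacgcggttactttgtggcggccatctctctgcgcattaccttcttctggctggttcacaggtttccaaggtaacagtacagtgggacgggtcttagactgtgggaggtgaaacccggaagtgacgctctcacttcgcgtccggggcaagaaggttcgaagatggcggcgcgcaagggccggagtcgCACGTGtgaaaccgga
Mxd4: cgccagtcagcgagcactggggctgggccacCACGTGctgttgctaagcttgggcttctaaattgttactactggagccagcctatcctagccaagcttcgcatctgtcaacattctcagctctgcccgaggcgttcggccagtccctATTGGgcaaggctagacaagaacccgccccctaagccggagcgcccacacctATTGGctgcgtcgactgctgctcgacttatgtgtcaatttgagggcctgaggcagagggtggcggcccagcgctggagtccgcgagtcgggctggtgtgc
Sgsh: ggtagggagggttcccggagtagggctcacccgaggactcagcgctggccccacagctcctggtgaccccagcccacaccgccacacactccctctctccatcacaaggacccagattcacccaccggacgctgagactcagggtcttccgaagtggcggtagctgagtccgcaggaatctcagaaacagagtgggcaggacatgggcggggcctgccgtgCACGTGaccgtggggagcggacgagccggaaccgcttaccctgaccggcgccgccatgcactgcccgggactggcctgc
The motif was thus found on both sides, and a match does not show that a factor binds there.

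TGFb and BMP targets formed another higher group. Of 25 measured genes 12 lay above and 3 below, 8 and 0 of them by at least 2-fold, with a median change of 0.48. Beside Id1, Pmepa1 and Id3, the members at least 2-fold higher included Tgfbi, Skil, Smad6 and Id2, these 4 being named after their values were seen. Smad6, an inhibitor of BMP receptors, had 14.6 FPKM after IFNg, 5.36 after IL4, 27.0 after TNFa, 11.9 after TGFb1, 13.7 after IL1b, 18.3 after MALP2 and 17.5 after CpG, against 1.07 FPKM untreated. Skil, a repressor of SMAD proteins, had 33.0 to 56.5 FPKM after stimulation (median 42.4) and 7.68 FPKM untreated. Smad6 was higher after TNFa, MALP2, CpG, IFNg and IL1b than after TGFb1, the ligand of TGFb receptors among the agents, while Pmepa1 was highest after TGFb1. Tgfbr2, a receptor of TGFb, lay below, with 12.8 to 28.9 FPKM after stimulation (median 17.7) and 57.2 FPKM untreated. Smad4, the shared SMAD, had 20.0 to 23.1 FPKM after stimulation (median 21.5) and 33.4 FPKM untreated, but none of the authors' deposited tables called it. The list median was highest after TGFb1 (0.94) and IFNg (0.81) and lowest after MALP2 (0.36).

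Immediate early genes, which need no new protein to be induced, gave 14 of 39 above and 0 below, with 4 at least 2-fold higher and a median change of 0.78. Plk3, a stress kinase, had 11.5 FPKM after IFNg, 32.0 after IL4, 10.7 after TNFa, 27.5 after TGFb1, 10.1 after IL1b, 16.01 after MALP2 and 13.2 after CpG, against 1.92 FPKM untreated. Maff, a small MAF factor, had 46.2 FPKM after IFNg, 7.34 after IL4, 31.0 after TNFa, 12.7 after TGFb1, 25.1 after IL1b, 32.7 after MALP2 and 26.9 after CpG, against 1.68 FPKM untreated. IL4 and TGFb1 were highest for Plk3 and lowest for Maff. Genes of matrix proteolysis and coagulation gave 11 of 26 above and 4 below, 6 of them at least 2-fold higher. Adam8, a membrane metalloprotease, had 686 to 1556 FPKM after stimulation (median 978) and 177 FPKM untreated. Mmp13, collagenase, had 164 FPKM after IFNg, 47.9 after IL4, 73.2 after TNFa, 6.16 after TGFb1, 20.3 after IL1b, 117 after MALP2 and 277 after CpG, against 1.57 FPKM untreated. Plaur, the receptor of urokinase, had 43.5 to 260.1 FPKM after stimulation (median 199) and 15.4 FPKM untreated. CpG was highest and TGFb1 lowest for Mmp13, whose 7 stimulated levels were far apart.

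Glycolysis, heat shock and proteasome genes lay above untreated more often than below, and NADH dehydrogenase genes did not. In glycolysis and hypoxia 14 of 30 lay above and 2 below, 4 and 1 of them by at least 2-fold, with a median change of 0.99. Slc2a1, the glucose transporter, had 301 FPKM after IFNg, 69.1 after IL4, 332 after TNFa, 93.9 after TGFb1, 156 after IL1b, 499 after MALP2 and 449 after CpG, against 17.3 FPKM untreated. Hk2, hexokinase, had 30.0 to 97.6 FPKM after stimulation (median 78.3) and 13.2 FPKM untreated, and Ankrd37, a hypoxia-induced gene, had 5.43 to 12.6 FPKM after stimulation (median 9.86) and 1.39 FPKM untreated. Pfkm, the muscle form of phosphofructokinase, lay below with 3.13 to 3.88 FPKM after stimulation (median 3.44) and 12.6 FPKM untreated and a spread of 0.24. Heat shock proteins gave 10 of 18 above and 1 below, with 0 at least 2-fold either way and a median change of 0.66. Cryab, given above as lower, is not on this list. Bag3, a co-chaperone, had 32.3 to 53.6 FPKM after stimulation (median 38.4) and 18.7 FPKM untreated, and 1 of the authors' deposited tables called it. Proteasome subunits gave 20 of 47 above and 3 below, again with 0 at least 2-fold away, and a median change of 0.31. Psme3, a proteasome activator, had 81.3 to 124 FPKM after stimulation (median 115) and 47.4 FPKM untreated. NADH dehydrogenase genes gave 1 of 44 above and 13 below, but after centring 7 lay above and 6 below.

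Lysosome and autophagy genes had the largest share below untreated of the 39 lists. Of 38 measured genes 29 lay below untreated in all 7 libraries and 1 above, 7 and 0 of them by at least 2-fold, with a median change of -0.79. After centring 23 lay below and 2 above. The lysosomal transporter Slc46a3 had 6.55 FPKM after IFNg, 11.1 after IL4, 1.31 after TNFa, 3.77 after TGFb1, 3.70 after IL1b, 1.40 after MALP2 and 1.56 after CpG, against 48.0 FPKM untreated. Ulk1, the kinase that starts autophagy, had 1.71 FPKM after IFNg, 2.76 after IL4, 3.16 after TNFa, 5.06 after TGFb1, 4.28 after IL1b, 2.83 after MALP2 and 3.12 after CpG, against 19.5 FPKM untreated. Fnip2 had 14.7 FPKM after IFNg, 10.2 after IL4, 25.6 after TNFa, 29.8 after TGFb1, 30.1 after IL1b, 26.8 after MALP2 and 49.1 after CpG, against 193 FPKM untreated. It is the partner of folliculin, which controls TFEB through the nutrient sensor mTORC1, and folliculin itself (Flcn), named after its values were seen, had 14.4 to 24.4 FPKM after stimulation (median 18.2) and 75.1 FPKM untreated. MALP2, TNFa and CpG gave the lowest Slc46a3, at 1.31 to 1.56 FPKM, and IFNg the lowest Ulk1. Among lysosomal enzymes seen to be at least 2-fold lower, Lipa, acid lipase, had 192 to 322 FPKM after stimulation (median 289) and 777 FPKM untreated, Neu1, sialidase, had 13.7 to 19.9 FPKM after stimulation (median 17.5) and 42.7 FPKM untreated, and Sgsh, an enzyme that breaks down heparan sulfate, had 2.14 to 9.83 FPKM after stimulation (median 4.17) and 53.1 FPKM untreated. Atp6v1h, a subunit of the proton pump, was the 1 gene above, by 0.09.

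FOXO targets and quiescence genes overlap with that list through Gabarapl1, an autophagy protein with 36.6 to 49.9 FPKM after stimulation (median 39.3) and 122 FPKM untreated. The authors' deposited tables called Gabarapl1 in 3 of 7 comparisons. Of 35 measured genes 19 lay below and 4 above, 7 and 0 of them by at least 2-fold, with a median change of -1.02. Sesn1, a sestrin that restrains mTORC1, had 7.83 FPKM after IFNg, 36.5 after IL4, 12.98 after TNFa, 28.3 after TGFb1, 26.0 after IL1b, 15.6 after MALP2 and 7.82 after CpG, against 99.2 FPKM untreated. Foxo3 itself, its neighbour on chromosome 10, had 4.85 to 10.2 FPKM after stimulation (median 8.30) and 24.9 FPKM untreated, and 3 of the authors' 7 deposited tables called it. Sesn1 was highest among the stimulated after IL4, TGFb1 and IL1b and lowest after CpG and IFNg. Those above were small in step, such as Ddit4, an inhibitor of mTORC1, at 0.17. In the related stress lists, ATF4 and unfolded protein response genes gave 7 of 28 above and 7 below, with Ddit3 (CHOP) at 20.0 to 28.9 FPKM after stimulation (median 25.8) and 62.3 FPKM untreated, and BCL2 family genes gave 4 of 20 above and 4 below. The pro-apoptotic members Bbc3 and Bmf were the 2 at least 2-fold lower. Bbc3 had 3.11 to 5.24 FPKM after stimulation (median 3.62) and 14.1 FPKM untreated. Bmf had 1.02 to 9.31 FPKM after stimulation (median 1.54) and 21.02 FPKM untreated.

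Cell division genes also lay below more often than above. In the S and M phase list 18 of 36 lay below and 1 above, 4 and 0 of them by at least 2-fold, with a median change of -0.72. Bub1b, a spindle checkpoint kinase, had 2.68 FPKM after IFNg, 2.51 after IL4, 2.93 after TNFa, 4.55 after TGFb1, 4.15 after IL1b, 4.06 after MALP2 and 3.59 after CpG, against 13.5 FPKM untreated. Aurkb, Aurora kinase B, had 1.90 FPKM after IFNg, 2.22 after IL4, 2.29 after TNFa, 2.64 after TGFb1, 2.70 after IL1b, 3.58 after MALP2 and 2.31 after CpG, against 10.1 FPKM untreated. Kif23, a motor of cytokinesis, had 1.01 to 2.40 FPKM after stimulation (median 1.45) and 6.80 FPKM untreated. Untreated levels of these genes were low, at 6.80 to 13.5 FPKM. The D-type cyclins Ccnd1 and Ccnd2 lay above. Ccnd1, which carries growth factor signals into the cycle, had 502 FPKM after IFNg, 222 after IL4, 159 after TNFa, 225 after TGFb1, 228 after IL1b, 67.5 after MALP2 and 46.2 after CpG, against 12.4 FPKM untreated, and Ccnd2 had 111 FPKM after IFNg, 10.3 after IL4, 15.2 after TNFa, 9.89 after TGFb1, 12.02 after IL1b, 15.7 after MALP2 and 15.97 after CpG, against 2.99 FPKM untreated. IFNg was the highest for both. Their list, with the inhibitors, gave 4 of 15 above and 6 below, and Cdkn2c, an inhibitor of CDK4 and CDK6, had 4.19 to 7.76 FPKM after stimulation (median 5.23) and 18.1 FPKM untreated. Pcna, the polymerase clamp, was the 1 S phase gene above, by 0.01.

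**Figure D5:**
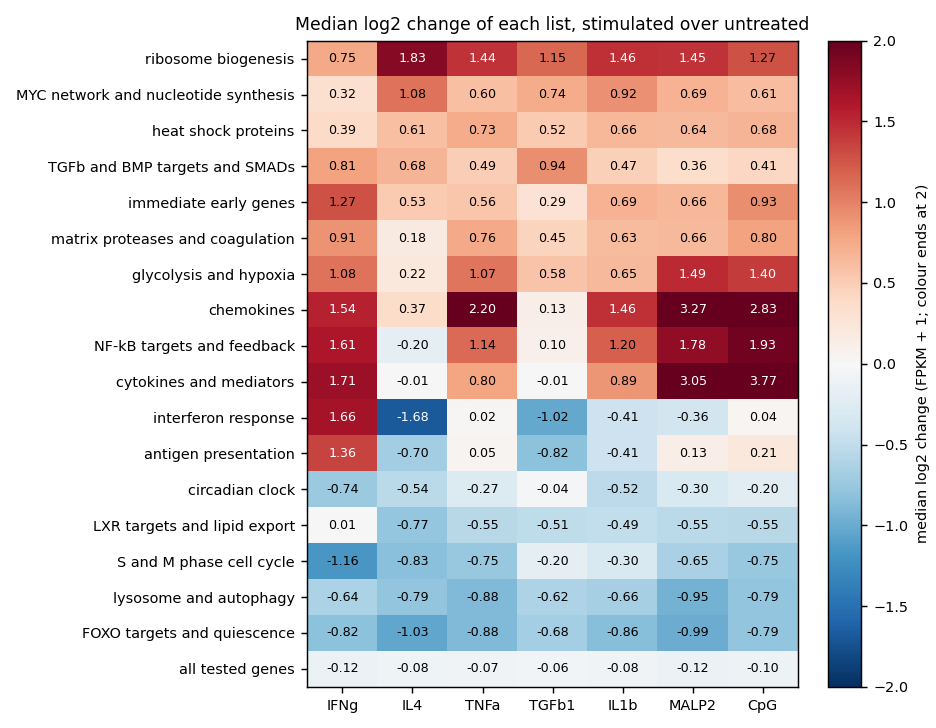
Median log2 change, stimulated over untreated, of 17 lists and of all measured genes (bottom row) in each of the 7 stimulated libraries. Ribosome biogenesis is positive in every column, from 0.75 (IFNg) to 1.83 (IL4), the lysosome and FOXO lists are negative in every column, and the interferon list changes sign between columns, from 1.66 (IFNg) to -1.68 (IL4).

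Circadian clock genes lay on both sides. Of 14 measured genes 4 lay below, a share of 28.6% beside 29.4% of all measured genes, and 2 above. All 4 were at least 2-fold lower. The 4 were the PAR-domain output factors Dbp and Tef and the REV-ERB repressors Nr1d1 and Nr1d2. Tef had 5.20 FPKM after IFNg, 11.7 after IL4, 14.1 after TNFa, 18.2 after TGFb1, 12.7 after IL1b, 10.7 after MALP2 and 9.45 after CpG, against 43.8 FPKM untreated. Nr1d2 had 0.706 to 2.10 FPKM after stimulation (median 1.25) and 6.29 FPKM untreated and Nr1d1 0.598 to 1.29 FPKM after stimulation (median 0.928) and 3.98 FPKM untreated. The 2 above, the negative regulators Per2 and Cry1, had steps of 0.44 and 0.26, and none of the authors' deposited tables called Cry1. Culture times other than the 4 h of stimulation are not given beyond the day of differentiation. The Dbp promoter (GRCm38.p6, chr7:45704997-45705296, plus strand) is shown because Dbp had the largest step of this list. Capitals mark TTCNNNGAA, the spacing of STAT sites, at -99, and CCAAT on the other strand at -222 and +27.
Dbp: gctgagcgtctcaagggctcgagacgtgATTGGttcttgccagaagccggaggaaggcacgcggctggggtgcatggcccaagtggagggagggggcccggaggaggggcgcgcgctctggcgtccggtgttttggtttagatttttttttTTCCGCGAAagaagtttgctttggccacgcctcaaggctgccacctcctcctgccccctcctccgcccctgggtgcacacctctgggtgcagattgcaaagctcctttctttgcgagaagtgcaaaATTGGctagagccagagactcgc
TTCNNNGAA was in 9.25% of windows of genes at least 2-fold lower, 6.34% of those at least 2-fold higher and 6.89% of all.

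Receptors and their adaptors were read through 3 lists. Of 41 receptors for metabolites, nucleotides and lipids, 10 lay below (24.4%) and 6 above (14.6%), beside 29.4% and 19.6% of all measured genes. By at least 2-fold, 5 lay below and 2 above. Adora2b, an adenosine receptor, was higher, with 58.5 FPKM after IFNg, 20.3 after IL4, 48.0 after TNFa, 5.98 after TGFb1, 39.7 after IL1b, 66.8 after MALP2 and 108 after CpG, against 1.12 FPKM untreated. TGFb1 gave its lowest stimulated level. Gpr160, an orphan receptor, had 0.655 to 1.29 FPKM after stimulation (median 0.854) and 10.7 FPKM untreated with a spread of 0.47, and Lpar5, a receptor of lysophosphatidic acid, had 0.472 FPKM after IFNg, 5.58 after IL4, 1.66 after TNFa, 3.12 after TGFb1, 2.01 after IL1b, 1.48 after MALP2 and 1.17 after CpG, against 27.5 FPKM untreated. Of 19 Toll-like receptors and adaptors 6 lay below, a share of 31.6% that is near the 29.4% of all measured genes, and 0 above. Tlr7, a sensor of single-stranded RNA, had 10.9 to 22.1 FPKM after stimulation (median 16.7) and 66.6 FPKM untreated, Tlr9, the sensor of CpG DNA, had 28.7 FPKM after IFNg, 6.16 after IL4, 5.64 after TNFa, 11.7 after TGFb1, 10.4 after IL1b, 11.2 after MALP2 and 7.35 after CpG, against 51.7 FPKM untreated, and Irak4, their kinase, had 13.9 to 18.6 FPKM after stimulation (median 17.7) and 32.1 FPKM untreated. None of the authors' deposited tables called Irak4, whose locus overlaps another listed gene. IFNg left the most Tlr9, and CpG, its own ligand, was not the lowest. Of 8 measured chemokine receptors 3 lay above (37.5%) and 2 below (25%), and Ccr1 had 15.003 to 58.8 FPKM after stimulation (median 24.6) and 3.09 FPKM untreated.

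Signalling regulators were also among the genes at least 2-fold from all 7 libraries. Arhgef6, an activator of Rac and Cdc42, had 10.7 FPKM after IFNg, 15.7 after IL4, 9.17 after TNFa, 15.7 after TGFb1, 14.6 after IL1b, 7.00 after MALP2 and 8.24 after CpG, against 83.6 FPKM untreated. Rasgrp3, an activator of Ras and Rap, had 0.428 FPKM after IFNg, 6.58 after IL4, 0.919 after TNFa, 8.02 after TGFb1, 3.91 after IL1b, 0.408 after MALP2 and 0.628 after CpG, against 31.2 FPKM untreated. As with Arhgap19, TGFb1 was nearest to untreated for Rasgrp3, while MALP2 and IFNg were lowest. Rgs16, which limits signalling of G protein-coupled receptors, was at least 2-fold higher, with 7.23 FPKM after IFNg, 32.1 after IL4, 14.2 after TNFa, 15.4 after TGFb1, 11.9 after IL1b, 5.38 after MALP2 and 7.98 after CpG, against 1.17 FPKM untreated.

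LXR targets and lipid exporters lay below more often than above, unlike the sterol synthesis and metal lists. Of 26 LXR targets and lipid exporters 11 lay below and 2 above, 4 and 1 of them by at least 2-fold, with a median change of -0.55. Cyp27a1, which makes 27-hydroxycholesterol, had 9.84 FPKM after IFNg, 6.85 after IL4, 5.62 after TNFa, 6.38 after TGFb1, 5.73 after IL1b, 5.38 after MALP2 and 5.05 after CpG, against 37.8 FPKM untreated, in contrast to Ch25h. Nceh1, a cholesterol ester hydrolase, had 12.6 to 67.0 FPKM after stimulation (median 38.3) and 147 FPKM untreated, and Pparg, the nuclear receptor of fatty acids, had 4.51 to 14.5 FPKM after stimulation (median 7.24) and 32.0 FPKM untreated. Sterol and fatty acid synthesis genes gave 6 of 28 above and 2 below, with 0 at least 2-fold either way. Of 19 iron and metal genes 3 lay above and 2 below, and opposite to Slc40a1 the importer Slc39a14 had 49.5 FPKM after IFNg, 21.9 after IL4, 83.0 after TNFa, 38.9 after TGFb1, 68.3 after IL1b, 209 after MALP2 and 281 after CpG, against 9.61 FPKM untreated. Of 25 C-type lectins and scavenger receptors 4 lay above and 7 below. Msr1, a scavenger receptor, had 46.6 to 190.3 FPKM after stimulation (median 134) and 17.3 FPKM untreated, Olr1, a receptor of oxidised LDL, had 1.94 to 61.2 FPKM after stimulation (median 25.03) and 0.0341 FPKM untreated, and Cd300a, an inhibitory receptor, had 42.7 to 100.1 FPKM after stimulation (median 63.1) and 258 FPKM untreated.

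NF-kB targets, chemokines and cytokines lay above untreated in all 7 libraries for 33.3%, 36.4% and 33.3% of their measured genes, beside 19.6% of all, and by at least 2-fold for 6.06%, 13.6% and 8.33%, beside 1.58%. NF-kB targets gave 11 of 33 above and 0 below, with 2 at least 2-fold higher and a median change of 1.39. The list median was 1.93 after CpG and -0.20 after IL4. Tnfaip3, the feedback inhibitor A20, had 189.5 FPKM after IFNg, 18.0 after IL4, 85.7 after TNFa, 14.5 after TGFb1, 61.9 after IL1b, 165 after MALP2 and 233 after CpG, against 6.66 FPKM untreated. Chemokines gave 8 of 22 above and 0 below, 3 of them at least 2-fold higher. Ccl2 and Ccl7, monocyte attractants at neighbouring loci on chromosome 11, had 49.8 to 687 FPKM after stimulation (median 187) and 9.09 FPKM untreated and 25.3 to 986 FPKM after stimulation (median 152) and 4.53 FPKM untreated. IL4 gave the highest level of both and TGFb1 the lowest. Cytokines and mediators gave 8 of 24 above and 0 below, with Il1rn, the IL1 receptor antagonist, at 1761 FPKM after IFNg, 88.6 after IL4, 441 after TNFa, 118 after TGFb1, 219.5 after IL1b, 1102 after MALP2 and 1413 after CpG, against 24.5 FPKM untreated. Ptgs2, cyclooxygenase 2, had 2.93 to 169 FPKM after stimulation (median 5.87) and 0.667 FPKM untreated. The interferon response was outside in no gene, 0 of 34 above and 0 below. Its median change was 1.66 after IFNg and -1.68 after IL4. Antigen presentation genes gave 2 of 22 above and 0 below, and Cd86, a costimulatory ligand, had 142 FPKM after IFNg, 31.8 after IL4, 24.1 after TNFa, 26.0 after TGFb1, 26.7 after IL1b, 13.3 after MALP2 and 21.6 after CpG, against 4.44 FPKM untreated.

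The remaining lists are given by their counts. Solute carriers gave 37 of 174 above and 50 below, 6 and 8 of them by at least 2-fold, and 42 each way after centring. Slc7a8, a transporter of neutral amino acids, had 172 to 331 FPKM after stimulation (median 223) and 30.7 FPKM untreated. Zinc finger genes named Zfp gave 17 of 192 above and 60 below, 0 and 2 by at least 2-fold. CSF receptor and growth factor genes gave 11 of 35 above and 5 below, with Dok2, an adaptor that restrains receptor kinases, at 351 FPKM after IFNg, 269 after IL4, 104 after TNFa, 58.2 after TGFb1, 137 after IL1b, 146 after MALP2 and 96.7 after CpG, against 15.8 FPKM untreated, and Pdgfa, a secreted growth factor, at 58.6 to 168 FPKM after stimulation (median 63.9) and 18.1 FPKM untreated. Receptors and bridges for dying cells gave 4 of 18 above and 4 below, macrophage lineage factors 4 of 28 above and 7 below, and NRF2 genes 4 of 24 above and 6 below. After centring these last 3 gave 5 and 3, 6 and 5, and 5 and 4. RNA decay and microRNA factors gave 9 of 27 above and 6 below, glucocorticoid and cAMP response genes 4 of 22 and 3, complement and Fc receptors 4 of 19 and 1, and Krüppel-like factors 2 of 9 and 0. Fkbp5, a glucocorticoid-induced chaperone in other settings, had 22.96 FPKM after IFNg, 79.1 after IL4, 43.9 after TNFa, 211 after TGFb1, 73.0 after IL1b, 25.8 after MALP2 and 24.5 after CpG, against 9.502 FPKM untreated, with TGFb1 highest.

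The genes of the 2-fold sets whose 7 stimulated libraries were most alike are given next. Both their evenness and their distance from untreated were the grounds for choosing them. Among those at least 2-fold higher, Cnot7, a deadenylase, had 23.8 FPKM after IFNg, 20.1 after IL4, 21.2 after TNFa, 21.3 after TGFb1, 19.4 after IL1b, 24.2 after MALP2 and 24.7 after CpG, against 9.10 FPKM untreated. Lmna, lamin A of the nuclear envelope, had 268 FPKM after IFNg, 292 after IL4, 248 after TNFa, 268 after TGFb1, 315 after IL1b, 319 after MALP2 and 255 after CpG, against 66.3 FPKM untreated. Dynll1, a dynein light chain, had 153 to 207 FPKM after stimulation (median 176) and 64.3 FPKM untreated. Coq10b and Ptges3 completed these 5, with spreads of 0.39 and 0.43. The authors' deposited tables called Coq10b in 1 of 7 comparisons and Ptges3 in 6. Among those at least 2-fold lower, Cul9, a cullin, had 3.11 FPKM after IFNg, 3.11 after IL4, 2.99 after TNFa, 2.99 after TGFb1, 2.91 after IL1b, 3.07 after MALP2 and 3.12 after CpG, against 7.52 FPKM untreated. Its locus overlaps others. Mcee, an enzyme of propionate breakdown, had 18.6 to 21.1 FPKM after stimulation (median 20.2) and 46.2 FPKM untreated, and Atg2a, a lipid transfer protein of autophagy, had 5.27 to 6.32 FPKM after stimulation (median 5.75) and 17.2 FPKM untreated. Grtp1 and Cd300lg had spreads of 0.16 and 0.18. No table of the authors called Mcee, whose untreated bounds were 19.1 to 73.4 FPKM.

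The 2-fold limit cuts through a continuous range. Just inside it on the higher side were Acta1 and Snu13, with steps of 1.0005 and 1.0023, and just outside Ttc19 and Ctla2a, at 0.9915 and 0.9861. On the lower side Gas6 and Chd3 were just inside, at -1.0008 and -1.0011, and Cln6 and Idua just outside, at -0.9973 and -0.9965. Gas6, a ligand that bridges dying cells to phagocytes, had 220.1 to 339.9 FPKM after stimulation (median 272) and 681 FPKM untreated, but none of the authors' deposited tables called it.

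The members shared little in gene structure. The longest annotated transcript had a median length of 3212 bases for genes at least 2-fold higher, 3486 for those at least 2-fold lower and 3331 for all measured genes. Median exon numbers were 7, 9 and 8, and median transcript GC content was 50.3%, 52.1% and 49.7%. Median promoter GC content was 61.8%, 60.3% and 60.7%. Of the other motifs, TGACGTCA, the site of cAMP-response factors, was in 6.34% of the windows of higher genes, 1.03% of those of lower genes and 3.03% of all, and TGANTCA, the AP-1 site, in 9.15%, 6.16% and 5.32%. Of the 7 not yet given, the shares for higher genes, lower genes and all were 4.93%, 4.79% and 5.31% for the NF-kB consensus, and 2.82%, 0.685% and 1.32% for the CArG box of serum response factor. They were 2.82%, 4.11% and 2.55% for GTAAACA, the forkhead site, and 5.63%, 4.11% and 5.40% for the STAT6 site, which has the same ends as TTCNNNGAA with 1 more base between them and can overlap it. For the interferon-stimulated response element they were 3.52%, 2.05% and 3.37%. For GAGGAAGT, an ETS site, they were 2.82%, 4.45% and 3.49%, and for TATAAA 11.3%, 6.16% and 6.93%. The window of 1 gene can appear more than once where it has several start sites, and windows were found for 350 of the 450 genes. In mm9 order, 14 of the 158 higher genes had another higher member as the next measured gene on either side (4.43% of neighbours against 1.58% of all measured genes). This held for 28 of the 292 lower genes (4.79% of neighbours against 2.92%). The pairs included Ccl2 with Ccl7 and Ell2 with Glrx among the higher genes. Among the lower genes they included Sesn1 with Foxo3, Mxd4 with Zfyve28, and Sgsh with Slc26a11, whose loci are 20 bases apart.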

How the data were processed

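Poly(A) RNA of 8 mouse macrophage cultures, 1 untreated and 7 stimulated, was sequenced. Per the submitters' processing notes the authors used mm9 with TopHat 1.3.1, Cufflinks 1.2.1 and Cuffdiff 1.2.1. Their options and the strand setting: not given in the sources used here. The deposited tables give FPKM with lower and upper confidence bounds, per the file headers, for a stimulated and the untreated library. The authors' Cuffdiff tables hold, per the file headers, a q-value with a call for each gene, and called genes had a q-value up to 0.04999.

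The untreated columns of the 7 FPKM tables differ by 1 factor each (0.944 to 1.04), by which they were joined. Protein-coding genes with status OK in all tables and a mean of at least 1 FPKM were kept. Changes are log2(FPKM + 1), which understates those of low genes. FPKM is relative to each library's total. Named were the 3 given genes, the 15 with the largest step each way among genes called in all 7, up to 3 members per list and direction, the 5 of least spread and those at the 2-fold limit. Most others are marked where they occur. Foxo3, Nr1d1, Cryab, Aph1b and Zfyve28 were also named outside these rules. A few genes and 1 list that these rules select are not reported here. Members and lists were chosen with earlier results of these data known. GENCODE release 21 gave symbols for 31840 of 36806 identifiers. Loci are mm9, counted from 1. Promoters are from RefSeq (GRCm38.p6). The alternatives were centring, other floors, pseudocount and biotypes, each stimulated library left out, the authors' bounds and calls, and loci without overlap. Counting was checked on simulated data. Python 3.11.15, numpy 2.4.6, pandas 2.3.3 and matplotlib 3.10.9 were used.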

Additional observations from a re-analysis of the deposited data

How the results depend on the processing

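The counts of genes outside the range depended most on the error allowed within a library. With the authors' confidence bounds required to be apart, 117 genes lay above and 234 below, and of the 2-fold sets 94 and 179 remained. Required calls in all 7 of the authors' deposited tables left 165 above and 303 below. Loci that overlap no other listed gene, an alternative chosen after seeing the data, gave 1202 above and 1746 below, and 102 and 192 in the 2-fold sets, as fewer genes were measured. Leaving out each stimulated library in turn gave 1978 to 2378 above and 2967 to 3353 below, and 160 to 233 and 293 to 369 in the 2-fold sets, the highest 2-fold counts being those without IFNg, since a narrower set of libraries can only widen the sets. The other alternatives stayed within 1.5 times: a floor of 5 FPKM gave 157 and 207 genes in the 2-fold sets, no floor 158 and 313, all biotypes 194 and 330, and a pseudocount of 0.1 FPKM 225 and 361. None of the 215 named genes changed direction under centring, the other pseudocount or leaving out a library, but after centring 2 of them, Stab1 and Psmg4, came to lie inside the range. The step moved by more than the distance from the untreated level to the authors' upper bound of it, or into the range, in 18 named genes with the pseudocount of 0.1 FPKM and in 3 after centring. It did so in 17 without TGFb1, 10 without IL4, 8 without IFNg, 5 without MALP2, 1 without CpG, 1 without IL1b and 0 without TNFa. No paired analysis was possible because each group has 1 library.

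With 1 library per group nothing here has a replicate check, and the untreated library enters every comparison. A fault or chance deviation in it would put genes outside the range in all 7 comparisons at once, which these data cannot tell apart from an effect common to the stimuli. Relative to untreated, depth was lowest after IFNg, so its low values are the least precise.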

Other observations

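Non-coding RNAs showed both directions. Of 35 lincRNA genes at a mean of at least 1 FPKM, 1 was at least 2-fold higher in all 7 stimulated libraries (2.86%) and 4 lower (11.4%). The higher one, Gm14005, had 27.4 FPKM after IL4 to 49.9 FPKM after MALP2, with a median of 33.6 FPKM, and 2.70 FPKM untreated, a step of 2.94 and a spread of 0.84. Gm13710 had 1.63 to 2.81 FPKM after stimulation and 12.5 FPKM untreated, and 2610035D17Rik had 0.448 to 1.26 FPKM after stimulation and 5.99 FPKM untreated. All 3 were called in all 7 of the authors' deposited tables, and their bounds were apart from untreated. The processed transcript 2410006H16Rik had 17.7 to 36.2 FPKM after stimulation and 97.2 FPKM untreated. These names were chosen after their values were seen.

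Of 1417 processed pseudogenes 24 were at least 2-fold higher (1.69%) and 6 lower (0.423%), beside 1.58% and 2.92% of protein-coding genes, so the higher share was near that of protein-coding genes. Of 90 snoRNA genes 3 were higher (3.33%) and 6 lower (6.67%). Reads of a processed pseudogene can come from its parent gene, and short RNAs are poorly captured by poly(A) selection, so these values are less sure. Of 464 identifiers without a symbol in the annotation, 5 were higher (1.08%) and 11 lower (2.37%).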
